A study of Mus musculus with 10 samples.

Results

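Aminoacyl-tRNA synthetases are the enzymes that load transfer RNAs with their amino acids, and their 36 genes were compared between splenic B cells of mice with liver fibrosis and of wildtype mice. The genes were taken by symbol from the deposited count table, where each of the 36 symbols stood once among 54532 genes. All 36 passed the filter on low counts and were among the 14283 genes tested. Of them, 20 encode enzymes of the cytosol and 16, with symbols that end in 2, encode enzymes of mitochondria. The fibrosis group (5 libraries) came from mice injected intraperitoneally with carbon tetrachloride (CCl4), a solvent toxic to hepatocytes, over 4 weeks, and the control group (5 libraries) from wildtype mice. The sources used here do not give strain, age, sex, any vehicle given to the controls or the way the B cells were isolated. Nothing in the labels ties each library to an animal of its own, so the p-values describe the spread between these libraries and part of it may be technical.

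A synthetase joins an amino acid to the matching transfer RNAs in a reaction that consumes ATP, and an elongation factor then carries the charged transfer RNAs to the ribosome. Several cytosolic synthetases are held in a multisynthetase complex by scaffold proteins, others act free of it, and mitochondria use a separate set, also encoded in the nucleus, to translate their own messages. When uncharged transfer RNAs build up, the kinase GCN2 slows general translation and favours the transcription factor ATF4, which is known to raise genes of amino acid synthesis and import and several cytosolic synthetase genes. Dividing lymphocytes are known to raise the translation machinery, synthetases among it.

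Libraries held 13439100 to 17069393 counts in fibrosis and 15912080 to 17954551 in control. Levels are CPM, the counts of a gene per 1e6 counts of a library whose size was scaled by TMM, and values per library are given in the order of replicates 1 to 5. The defining B cell markers were abundant in every library, with 10 genes summing to 7036 to 10220 CPM in fibrosis and 6692 to 7706 CPM in control, and 4 of the 10 were higher in fibrosis. All 20 cell cycle genes of the list examined were lower in fibrosis, summing to 1574 to 2446 CPM against 4405 to 5710 CPM in control. Among markers of other cells, 8 of 8 tested platelet genes were higher (sums of 328 to 1347 CPM in fibrosis and 196 to 244 CPM in control), as were 5 of 9 dendritic cell genes (292 to 370 CPM in fibrosis and 179 to 199 CPM in control), 4 of 8 NK cell genes (77.1 to 151 CPM in fibrosis and 70.3 to 117 CPM in control), 1 of 10 T cell genes (87.2 to 162 CPM in fibrosis and 79.0 to 113 CPM in control) and 1 of 6 tested plasma cell genes (457 to 628 CPM in fibrosis and 471 to 603 CPM in control). Of 13 erythroid genes, 8 were lower (955 to 7751 CPM in fibrosis and 3695 to 6022 CPM in control), and 5 of 6 tested pancreatic genes were lower (10.9 to 58.8 CPM in fibrosis and 46.5 to 105 CPM in control). By the same test 18.6% of all tested genes were higher and 17.2% lower, so the T cell and plasma cell counts lay under the share of all genes. None (0) of 10 macrophage and 10 neutrophil genes passed the test. Their sums were 1055 to 3856 CPM in fibrosis and 1378 to 2497 CPM in control for macrophages, and 419.9 to 4682 CPM in fibrosis and 706 to 1830 CPM in control for neutrophils. Fibrosis 4 and 5 held the highest sums of both lists and of the platelet list among all 10 libraries. No marker was at 0 in every library of a group. In bulk RNA, fewer cells of a type and less RNA per cell cannot be told apart, and the part of these markers in the results on synthetases was not tested.

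Of the 36 synthetase genes, 19 were lower in fibrosis and 1 was higher by the quasi-likelihood test of edgeR, which called a gene where the adjusted p was below 0.05, and 16 did not pass. Over all tested genes 35.7% were called, 17.2% lower and 18.6% higher. Among the 9290 genes that averaged 10 CPM or more, as all 36 synthetase genes did, 39.9% were called, 20.0% lower and 19.9% higher. The median log2 change, fibrosis over control, was -0.29 for the 36 genes and 0.05 for all tested genes. In 16 of the 36 genes every fibrosis library lay below every control library, and in 1 every fibrosis library lay above, against 14.0% and 11.4% of all tested genes. With scaling by library size only, which moved the median of all genes by -0.11, 24 synthetase genes were lower and 1 higher, and over all genes the split was 1777 higher and 3306 lower in place of 2654 higher and 2451 lower.

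**Figure D1:**
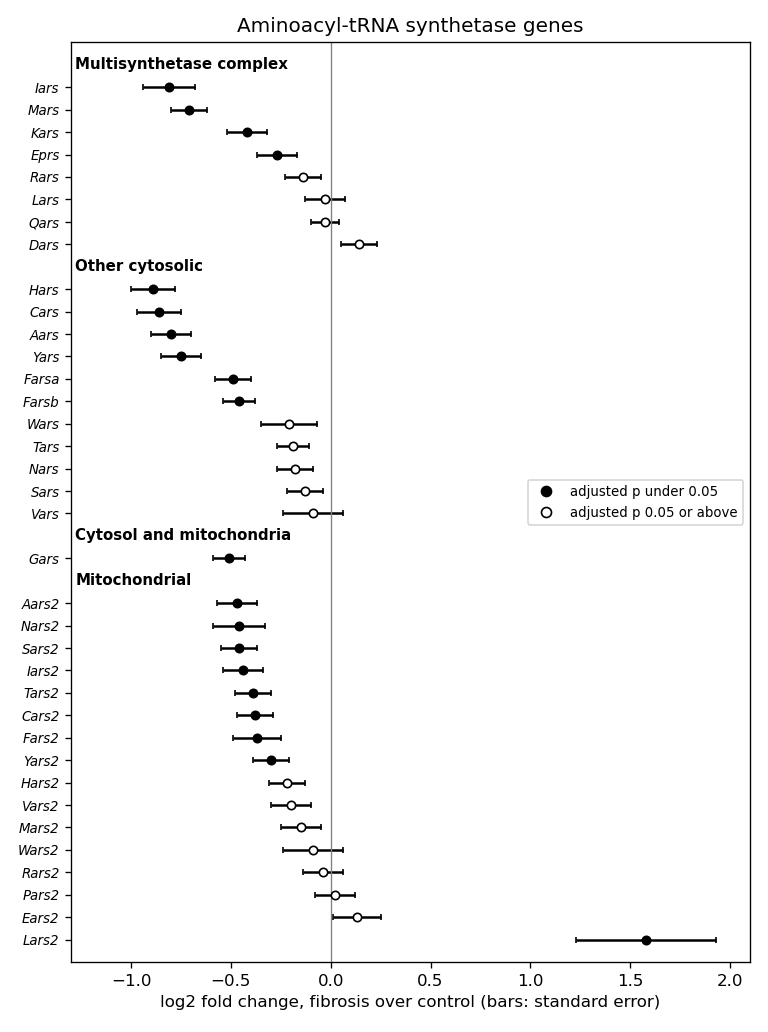
Log2 fold change of each synthetase gene, fibrosis over control, with its standard error, grouped by the place of the enzyme. Filled points passed the test (19 lower, 1 higher) and open points did not (16); Lars2 stands alone on the right at 1.58.

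Cytosolic synthetases fell in 11 of 20 genes, and none (0) rose. Their median log2 change was -0.35. The 20 genes together summed to 2155 to 2936 CPM in fibrosis and 3027 to 3304 CPM in control, so that the sums of the groups did not overlap. In 10 of the 11 lower genes all fibrosis libraries lay below all controls, Eprs being the exception. Of all 14283 tested genes, 2451 (17.2%) were called lower, and in 1996 (14.0%) all fibrosis libraries lay below all controls.

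Outside the multisynthetase complex, 7 of 12 cytosolic genes were lower, where 17.2% of all tested genes were lower. Gars, which also serves mitochondria, is described on its own, and 6 of the other 11 were lower, which included the cytosolic gene with the largest decrease. These 11 genes summed to 1381 to 2032 CPM in fibrosis and 1970 to 2187 CPM in control, with overlapping groups. Hars, which encodes histidyl-tRNA synthetase (chromosome 18, 36766530 to 36783205, minus strand, GRCm38), stood at 84.5, 70.1, 75.9, 90.7 and 63.7 CPM in fibrosis, against 148, 137, 130.0, 132 and 167 CPM in control. The highest fibrosis library lay well under the lowest control library, and the log2 change was -0.89 ± 0.11 (SE; adjusted p = 7.19e-05), a level 46.1% lower in fibrosis. Hars shares 198 bases with Hars2 on the opposite strand, and the sources used here do not say whether counting used strand, so reads in those bases cannot be assigned.

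Cars, the cysteine enzyme (chromosome 7, 143557230 to 143600090, minus strand), was at 34.9, 38.0, 36.4, 36.7 and 26.1 CPM in fibrosis, against 66.0, 58.5, 60.4, 58.7 and 68.2 CPM in control. Fibrosis 5 was the lowest library and the groups were far apart, with a log2 change of -0.86 ± 0.11 (adjusted p = 7.34e-05). Aars, the alanine enzyme (chromosome 8, 111033144 to 111057664, plus strand), was at 134, 119, 112, 112 and 104 CPM in fibrosis, against 221, 207, 188, 172 and 221 CPM in control. Its groups did not overlap either, and its log2 change was -0.80 ± 0.10 (adjusted p = 7.02e-05).

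Yars, the tyrosine enzyme (chromosome 4, 129189760 to 129219607, plus strand), was at 62.8, 57.5, 59.5, 57.3 and 46.1 CPM in fibrosis, against 99.8, 104, 84.2, 91.5 and 95.5 CPM in control, a log2 change of -0.75 ± 0.10 (adjusted p = 9.31e-05). Again all fibrosis libraries were below all controls, and fibrosis 5 was lowest. The phenylalanine enzyme is built from alpha and beta subunits encoded by Farsa and Farsb, and both genes were lower by similar amounts. Farsa changed by -0.49 ± 0.09 (adjusted p = 0.00101) and Farsb by -0.46 ± 0.08 (adjusted p = 0.000519), with 60.2 ± 3.91 CPM in fibrosis and 83.0 ± 4.35 CPM in control for the beta subunit as mean and SD (n = 5 each).

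The other 5 of these 11 genes did not pass. They were Nars (asparagine, -0.18 ± 0.09, adjusted p = 0.123), Sars (serine, -0.13 ± 0.09, adjusted p = 0.292), Tars (threonine, -0.19 ± 0.08, adjusted p = 0.0727), Vars (valine, -0.09 ± 0.15, adjusted p = 0.692) and Wars (tryptophan, -0.21 ± 0.14, adjusted p = 0.275). Nars and Tars passed with scaling by library size only. Vars was spread more widely in fibrosis than in control, at 1077, 1039, 786, 657 and 619 CPM in fibrosis, against 948, 881, 844, 870.5 and 888 CPM in control. Fibrosis 1 and 2 lay above every control library and fibrosis 3, 4 and 5 below every one, so the group mean hides libraries on both sides. Wars, whose human counterpart is induced by interferon-gamma, had a like order, at 123, 132, 98.5, 78.0 and 77.0 CPM in fibrosis, against 111, 123, 119, 117 and 117 CPM in control. Fibrosis 2 lay above every control library, and fibrosis 1 only just so (123.3 CPM, against 122.9 CPM in control 2). Fibrosis 3, 4 and 5 lay below every one.

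Gars, the glycine enzyme, serves both cytosol and mitochondria from a single gene (chromosome 6, 55038007 to 55079500, plus strand). It was at 117, 108, 97.1, 111 and 92.0 CPM in fibrosis, against 153, 148, 140.2, 151 and 156 CPM in control. The groups did not overlap, and the log2 change was -0.51 ± 0.08 (adjusted p = 0.00048).

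Of 8 synthetase genes of the multisynthetase complex, 4 were lower and 4 did not pass, with a summed level of 681 to 787 CPM in fibrosis and 870 to 964 CPM in control. Iars, the isoleucine enzyme (chromosome 13, 49682100 to 49734267, plus strand), was at 83.3, 87.8, 79.5, 56.5 and 57.8 CPM in fibrosis, against 133, 124, 130.0, 113 and 141 CPM in control. It had the largest decrease in the complex, -0.81 ± 0.13 (adjusted p = 0.000406), and was lowest in fibrosis 4 and 5. Mars, the methionine enzyme that also charges the initiator transfer RNA (chromosome 10, 127296221 to 127311786, minus strand), was at 93.0, 94.3, 82.1, 79.5 and 70.6 CPM in fibrosis, against 145, 142, 127, 131 and 142 CPM in control. All its fibrosis libraries lay below all controls, with a log2 change of -0.71 ± 0.09 (adjusted p = 0.000105). Mars shares 68 bases with Ddit3 on the opposite strand, and Ddit3 itself was at -0.15 ± 0.14 (adjusted p = 0.433).

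Kars, the lysine enzyme, whose single gene also supplies mitochondria, was at 168, 144, 131, 134 and 110.5 CPM in fibrosis, against 197, 184, 179.8, 176 and 185 CPM in control. Its groups did not overlap, and it changed by -0.42 ± 0.10 (adjusted p = 0.00603). Eprs, which encodes the enzymes for glutamate and proline in 1 protein, was at 90.3, 99.97, 107, 83.8 and 74.2 CPM in fibrosis, against 106, 111, 122, 103 and 107 CPM in control. Its groups overlapped and its call was marginal, at -0.27 ± 0.10 (adjusted p = 0.0495). Eprs was at -0.15 (adjusted p = 0.196) without fibrosis 4 and 5, and its call also ended when fibrosis 1, 4 or 5 or any one control library was left out, and with DESeq2, limma voom, RLE scaling or the deposited FPKM (adjusted p of 0.0211 to 0.196 over all alternatives).

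The remaining genes of the complex did not pass. Lars, the leucine enzyme, was at -0.03 ± 0.10 (adjusted p = 0.847) and Qars, the glutamine enzyme, at -0.03 ± 0.07 (adjusted p = 0.809). Rars, for arginine, was at -0.14 ± 0.09 (adjusted p = 0.24), and passed with scaling by library size only. Dars, for aspartate, stood at 0.14 ± 0.09 (adjusted p = 0.232). Genes of enzymes that sit in the same complex thus had values from -0.81 ± 0.13 to 0.14 ± 0.09.

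**Figure D2:**
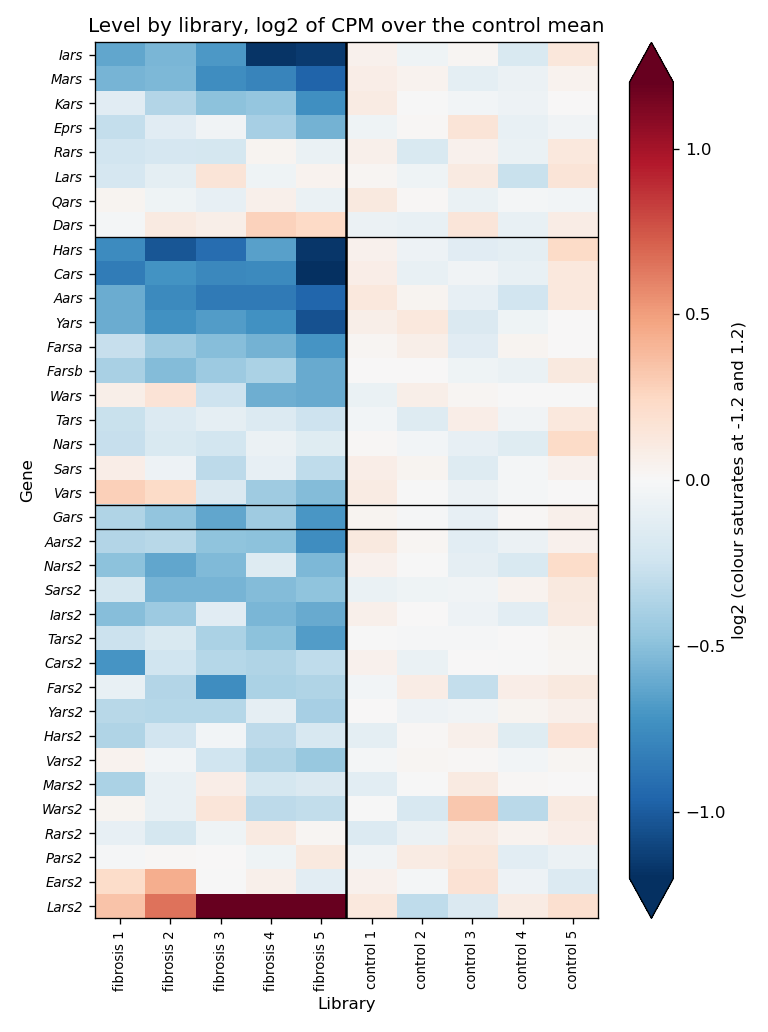
Level of each synthetase gene in each library, as log2 of CPM over the control mean, with fibrosis libraries 1 to 5 left of control libraries 1 to 5. Blue rows such as Hars and Cars were low in all 5 fibrosis libraries, and Lars2 was higher in fibrosis 3, 4 and 5 than in fibrosis 1 and 2.

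Fibrosis 5 was the lowest of the fibrosis libraries in 14 of the 19 lower genes and in 18 of all 36. The share of all tested genes that were lowest in fibrosis 5 was not computed, so these counts cannot be set against it. The summed cell cycle genes were also lowest in fibrosis 5, at 1574 CPM, and the part of this in the synthetase result was not tested. Without fibrosis 4 and 5, 10 cytosolic genes were lower and 7 mitochondrial ones.

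Promoters were examined because ATF4 is known to act on several of these genes through the C/EBP-ATF response element. The core letters searched were TGATGNAA, on both strands, in the 300 bases from 250 before to 50 after the RefSeq start (GRCm38.p6). A promoter was matched for 26 of the 36 genes. The others were Cars, Hars, Hars2, Lars, Mars, Nars, Pars2, Rars, Vars and Wars. The core stood in 5 of the 26 (19.2%), against 3.91% of 32544 promoters of the same length. The first share counts genes and the second counts promoters, and a gene may have several promoters, so the units differ. Of the 16 matched genes that were lower, 4 held it (Aars, Gars, Iars and Yars), and of the 10 others 1 did (Tars). The 5 promoters are shown because they hold the core in a synthetase gene, and capitals mark it, as its reverse complement in all but Yars. Positions are Aars chr8:111033592-111033891 (plus strand), Iars chr13:49681880-49682179 (plus strand), Gars chr6:55037751-55038050 (plus strand), Yars chr4:129189653-129189952 (plus strand) and Tars chr15:11399609-11399908 (minus strand).
Aars: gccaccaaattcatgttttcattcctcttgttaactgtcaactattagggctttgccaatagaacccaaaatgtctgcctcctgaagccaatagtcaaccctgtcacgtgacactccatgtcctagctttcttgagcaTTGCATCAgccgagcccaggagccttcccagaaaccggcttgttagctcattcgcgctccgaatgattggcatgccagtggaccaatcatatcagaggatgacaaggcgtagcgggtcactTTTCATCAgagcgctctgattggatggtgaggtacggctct
Iars: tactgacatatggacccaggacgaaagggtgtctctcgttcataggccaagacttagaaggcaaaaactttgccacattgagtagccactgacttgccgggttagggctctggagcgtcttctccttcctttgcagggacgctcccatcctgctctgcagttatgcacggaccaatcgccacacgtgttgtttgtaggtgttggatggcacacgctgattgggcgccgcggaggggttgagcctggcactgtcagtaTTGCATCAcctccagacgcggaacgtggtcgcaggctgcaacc
Gars: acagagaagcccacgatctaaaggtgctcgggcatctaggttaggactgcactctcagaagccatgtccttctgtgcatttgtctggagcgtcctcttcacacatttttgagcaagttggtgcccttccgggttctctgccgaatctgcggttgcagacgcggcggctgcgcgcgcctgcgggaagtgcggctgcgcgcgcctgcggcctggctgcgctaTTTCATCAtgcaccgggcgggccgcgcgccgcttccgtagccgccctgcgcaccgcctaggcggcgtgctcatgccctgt
Yars: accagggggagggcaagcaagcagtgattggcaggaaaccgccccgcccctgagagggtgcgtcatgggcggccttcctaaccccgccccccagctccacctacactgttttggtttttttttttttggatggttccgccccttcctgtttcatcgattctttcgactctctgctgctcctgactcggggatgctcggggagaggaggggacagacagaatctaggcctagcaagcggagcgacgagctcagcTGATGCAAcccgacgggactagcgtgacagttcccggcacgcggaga
Tars: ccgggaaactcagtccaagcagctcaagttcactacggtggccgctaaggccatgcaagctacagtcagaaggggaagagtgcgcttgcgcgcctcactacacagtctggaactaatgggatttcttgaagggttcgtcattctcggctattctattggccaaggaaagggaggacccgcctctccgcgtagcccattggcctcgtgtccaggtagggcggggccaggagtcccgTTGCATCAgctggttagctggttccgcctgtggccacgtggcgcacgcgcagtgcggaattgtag

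Aars held the core at 2 places, 112 bases before and 10 bases after the start, and none (0) of the 6 matches overlapped another searched motif. The E-box CACGTG, bound by Myc and its relatives, stood in promoters of 5 of the 26 genes (19.2%, against 7.17% of all promoters). Here too the first share is by gene and the second by promoter. The motif of the nuclear respiratory factor NRF1, GCGC, any 2 bases and GCGC, stood in 5 (19.2% against 6.27%), and the letters CCGGAAG, bound by ETS family factors, in 8 (30.8% against 8.91%). A match of letters is a description and no evidence of binding.

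Per length, as the authors' FPKM, Vars was the most abundant synthetase transcript, at 148 ± 41.0 FPKM in fibrosis and 158 ± 7.71 FPKM in control as mean and SD (n = 5 each). The next in fibrosis was Nars, at 40.6 ± 1.90 FPKM in fibrosis and 46.6 ± 4.99 FPKM in control, and the next in control was Hars, at 38.2 ± 6.13 FPKM in fibrosis and 71.8 ± 7.99 FPKM in control. The spreads of Hars and Nars overlap in fibrosis, and in control Hars stood above Nars by more than their spreads. Nars2, a mitochondrial gene, was the lowest at 1.22 ± 0.169 FPKM in fibrosis and 1.70 ± 0.194 FPKM in control. Lars2 stood 9th of the 36 in fibrosis and 23rd in control.

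Mitochondrial synthetases fell in 8 of 16 genes and rose in 1, with a median log2 change of -0.26. All 16 summed to 531 to 841 CPM in fibrosis and 566 to 624.5 CPM in control, with overlapping groups and the higher mean in fibrosis (694 ± 145 CPM, against 588 ± 22.6 CPM in control, SD over 5 libraries each). Without the 1 that rose, Lars2, the other 15 summed to 371 to 419 CPM in fibrosis and 476 to 513 CPM in control. In 6 of the 8 lower genes the groups did not overlap. The like counts over all 14283 tested genes were 2451 lower (17.2%) and 1996 with all fibrosis libraries below all controls (14.0%). None (0) of the 8 lower mitochondrial genes reached 1.5-fold. Their decreases were smaller in size than those of Hars, Cars, Iars, Aars, Yars and Mars. The other lower cytosolic genes were nearer to them and also short of 1.5-fold. These were Gars (-0.51), Farsa (-0.49), Farsb (-0.46), Kars (-0.42) and Eprs (-0.27).

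Aars2, the alanine enzyme of mitochondria, had the largest decrease, at 21.8, 22.1, 20.0, 19.8 and 16.6 CPM in fibrosis, against 30.2, 28.2, 25.5, 26.5 and 28.8 CPM in control. All fibrosis libraries were below all controls, with a log2 change of -0.47 ± 0.10 (adjusted p = 0.00245). Sars2 (serine) changed by -0.46 ± 0.09 (adjusted p = 0.00207), Iars2 (isoleucine) by -0.44 ± 0.10 (adjusted p = 0.00342), Tars2 (threonine) by -0.39 ± 0.09 (adjusted p = 0.00556) and Cars2 (cysteine) by -0.38 ± 0.09 (adjusted p = 0.00682). None (0) of these 4 had overlapping groups. Tars2 was tightly held in control, at 52.7 ± 6.85 CPM in fibrosis and 68.9 ± 0.963 CPM in control as mean and SD (n = 5 each).

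Yars2 (tyrosine) changed by -0.30 ± 0.09 (adjusted p = 0.0148) and lost its call with no filter on low counts (adjusted p = 0.0512). Nars2 (asparagine) changed by -0.46 ± 0.13 (adjusted p = 0.0138), with fibrosis 4 inside the range of the controls. Fars2 (phenylalanine) stood at 24.9, 20.8, 15.7, 20.3 and 20.6 CPM in fibrosis, against 25.8, 28.1, 21.6, 28.0 and 28.6 CPM in control, so that fibrosis 1 lay within the control range. Its change was -0.37 ± 0.12 (adjusted p = 0.0336), and the call was lost without fibrosis 2, 3, 4 or 5, control 1, 2, 4 or 5, or fibrosis 4 and 5 together (adjusted p of 0.00636 to 0.0804 over all alternatives, log2 change of -0.48 to -0.30). Iars2 shares 2034 bases with Rab3gap2, Cars2 984 with Naxd and Fars2 115 with Lyrm4, each on the opposite strand.

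The other mitochondrial genes did not pass. They were Hars2 (histidine, -0.22 ± 0.09, adjusted p = 0.0826), Vars2 (valine, -0.20 ± 0.10, adjusted p = 0.138), Mars2 (methionine, -0.15 ± 0.10, adjusted p = 0.246) and Wars2 (tryptophan, -0.09 ± 0.15, adjusted p = 0.666). Rars2 (arginine) was at -0.04 ± 0.10 (adjusted p = 0.759), Pars2 (proline) at 0.02 ± 0.10 (adjusted p = 0.909) and Ears2 (glutamate) at 0.13 ± 0.12 (adjusted p = 0.412). Hars2 passed without fibrosis 3 and Vars2 without fibrosis 1, and both passed with scaling by library size only. Pars2 was at -0.09 with that scaling.

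Lars2, the leucine enzyme of mitochondria (chromosome 9, 123366927 to 123462666, plus strand), was the 1 synthetase gene that rose. It was at 124, 153, 269, 454 and 468 CPM in fibrosis, against 107, 79.0, 87.1, 105 and 112 CPM in control. Every fibrosis library lay above every control library, fibrosis 1 by little and fibrosis 4 and 5 by far. The group levels were 294 ± 162 CPM in fibrosis and 97.9 ± 14.1 CPM in control as mean and SD (n = 5 each), a log2 change of 1.58 ± 0.35 (SE; adjusted p = 0.00456). Without fibrosis 4 and 5 the log2 change was 0.91 (adjusted p = 0.0093), and Lars2 kept its call in all 22 alternatives (0.91 to 1.78, adjusted p of 0.000127 to 0.0328).

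Other transcripts moved with Lars2 among the libraries, and those given here were chosen after their values were seen. The ribosomal RNA genes of the mitochondrial genome, mt-Rnr1 and mt-Rnr2, are read here in libraries prepared from poly-T selected RNA. mt-Rnr2 was at 386, 516, 540.3, 1789 and 1426 CPM in fibrosis, against 353, 366, 459.7, 445 and 291 CPM in control, a log2 change of 1.28 ± 0.40 (adjusted p = 0.0276). mt-Rnr1 changed by 1.05 ± 0.35 (adjusted p = 0.0378), and both were highest in fibrosis 4 and 5. Gm23935, an annotated RNA of 57 bases on chromosome 16 (11144125 to 11144181), was at 379, 478, 749, 1519 and 1672 CPM in fibrosis, against 149.7 to 258 CPM in control, a log2 change of 2.15 ± 0.40 (adjusted p = 0.00188). Its order over the fibrosis libraries was that of Lars2. The summed platelet markers had that order too, at 328, 419, 807, 1286 and 1347 CPM in fibrosis, against 196 to 244 CPM in control. The part of platelets, of ribosomal RNA and of RNA quality in the Lars2 result was not tested.

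**Figure D3:**
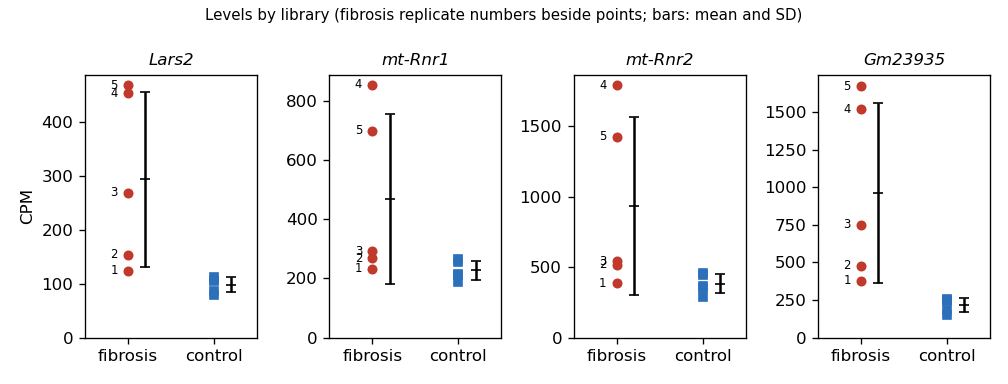
CPM of Lars2, mt-Rnr1, mt-Rnr2 and Gm23935 in fibrosis (circles, replicate numbers beside them) and control libraries (squares), with mean and SD. All 4 were highest in fibrosis 4 and 5, and Lars2 reached 468 CPM there against at most 112 CPM in control.

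Whether a cytosolic gene and its mitochondrial partner differed in response was tested on the log2 ratio of their counts within each library, which needs no scaling between libraries. Of 17 pairs, 9 ratios were lower in fibrosis, 2 were higher and 6 did not pass, by exact two-sided permutation tests adjusted over the 17. Eprs and Fars2 each stand in 2 pairs, so the pairs are not independent. As single genes, 35.7% of all tested genes were called. The share over other gene pairs was not computed, so the count of pairs cannot be set against it. The smallest p that the exact test allows on all 10 libraries is 0.00794, which gives an adjusted p of 0.0169 here. With libraries left out the groups have other sizes and the assignments are fewer, so those p-values are coarser. These ratios differ by gene length as well as by level, so only the change between groups is read.

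The Hars to Hars2 ratio was 1.24 ± 0.29 in fibrosis and 1.92 ± 0.14 in control (log2, SD, n = 5 each), a difference of -0.68 (exact permutation, adjusted p = 0.0169). Cars to Cars2 differed by -0.48, Yars to Yars2 by -0.45 and Aars to Aars2 by -0.32, each with the same adjusted p. In all 4 pairs the libraries of the groups did not overlap, and both partners leaned down, the cytosolic one further. The mitochondrial partner passed on its own in 3 of these 4, Hars2 being the exception. Mars to Mars2 differed by -0.56 (exact permutation, adjusted p = 0.0245).

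The Lars to Lars2 ratio had the largest difference, -1.42, at -2.02 ± 0.80 in fibrosis and -0.60 ± 0.27 in control. Here the cytosolic gene did not pass and the mitochondrial one rose. The ratio was higher in fibrosis for Sars to Sars2, by 0.33, and for Nars to Nars2, by 0.28 (exact permutation, adjusted p = 0.0169 for each). In these 2 pairs the mitochondrial gene fell and the cytosolic gene did not pass.

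Iars to Iars2 differed by -0.39 (exact permutation, adjusted p = 0.0169) and lost its call without any one control library, at a difference of -0.40 to -0.37 (adjusted p of 0.0613 to 0.0736). Eprs to Ears2 differed by -0.41 and Eprs to Pars2 by -0.30 (exact permutation, adjusted p = 0.0245 for each). The second lost its call without control 1, 3, 4 or 5, at -0.31 to -0.30 (adjusted p of 0.0613 to 0.0675). Without fibrosis 4 and 5 both Eprs ratios and that of Mars to Mars2 were at an adjusted p of 0.0506, with Mars to Mars2 at -0.48, Eprs to Ears2 at -0.38 and Eprs to Pars2 at -0.16. The 6 pairs that did not pass were those of Rars, Tars, Vars and Wars with their partners, and Farsa and Farsb with Fars2. When fibrosis 1 or 2 was left out, Tars to Tars2 passed (0.26 and 0.25, adjusted p = 0.045), as did Farsa to Fars2 without fibrosis 3 (-0.21, adjusted p = 0.0337).

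**Figure D4:**
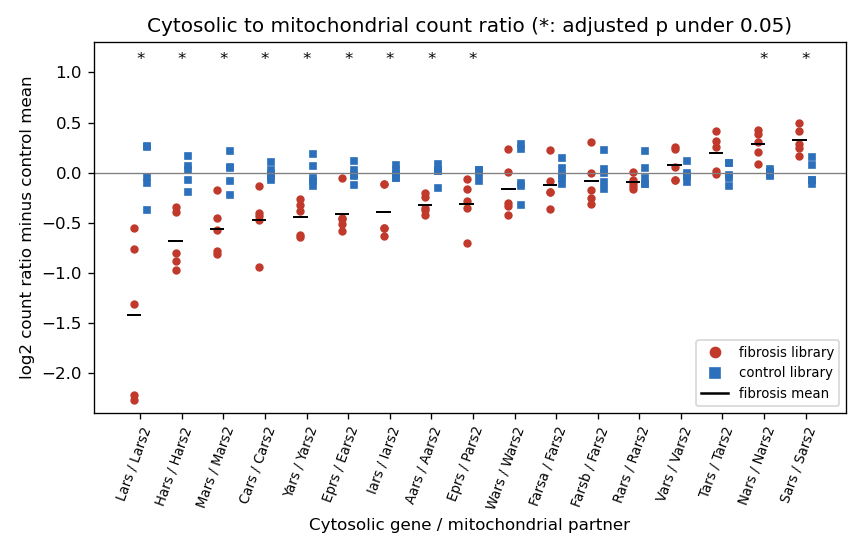
Log2 ratio of counts, cytosolic gene over mitochondrial partner, minus the control mean, in each fibrosis library (circles) and control library (squares), for 17 pairs ordered by their difference. Lars to Lars2 lies lowest and Nars to Nars2 and Sars to Sars2 lie highest among the pairs that passed (stars).

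The scaffold of the multisynthetase complex changed in 1 of 3 genes, where 35.7% of all tested genes were called. Aimp2, which holds the complex together, was at 21.6, 18.4, 18.8, 19.3 and 16.3 CPM in fibrosis, against 32.1, 30.0, 23.7, 26.7 and 27.0 CPM in control. Its groups did not overlap, and it changed by -0.56 ± 0.11 (adjusted p = 0.00139). Eef1e1, the smallest scaffold protein, stood at -0.29 ± 0.15 (adjusted p = 0.133) and passed without fibrosis 4, without fibrosis 4 and 5 (-0.54, adjusted p = 0.00079), with limma voom, with no filter and with scaling by library size only. Aimp1 was at 0.21 ± 0.12 (adjusted p = 0.175).

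Of 12 genes of synthetase relatives, editing enzymes and indirect charging routes, 2 were lower, with a median of -0.04. That is 16.7%, near the 17.2% of all tested genes. Tarsl2, a second cytosolic threonine enzyme, was at 10.4, 9.18, 10.5, 12.1 and 7.74 CPM in fibrosis, against 23.4, 20.9, 23.4, 21.2 and 28.8 CPM in control. With non-overlapping groups and a log2 change of -1.24 ± 0.14 (adjusted p = 3.74e-05), it had a larger decrease than any of the 36 synthetase genes, while Tars did not pass. Aarsd1, a free editing protein for alanine, was at -0.92 ± 0.32 (adjusted p = 0.0388), a low transcript whose call was lost in 11 alternatives (adjusted p up to 0.147).

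Further steps of the path were mixed, where 17.2% of all tested genes were lower and 18.6% higher. Of 17 tested genes of transfer RNA processing and export, 7 were lower and 2 higher, with a median of -0.07. Pop1, of RNase P, changed by -0.75 ± 0.12 (adjusted p = 0.000429), and the export receptor Xpot by -0.43 ± 0.09 (adjusted p = 0.00271). The splicing ligase Rtcb was higher, by 0.46 ± 0.07 (adjusted p = 0.000408). Of 20 genes of RNA polymerase III, which transcribes transfer RNAs, its factors and its repressor Maf1, 8 were lower and 1 higher (median -0.06). The higher one was Maf1, at 0.30 ± 0.09 (adjusted p = 0.0161), which lost its call in 5 alternatives (adjusted p up to 0.177). Gtf3c5, Gtf3c4 and Gtf3c2 of factor TFIIIC changed by -0.56 ± 0.10 (adjusted p = 0.00112), -0.50 ± 0.10 (adjusted p = 0.00151) and -0.39 ± 0.09 (adjusted p = 0.00309).

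After charging, cytosolic elongation and release factors were lower in 2 of 10 and higher in 1 (median 0.01). Over all tested genes the shares were 17.2% lower and 18.6% higher, so these counts were near or under them. Eef1a1, which carries charged transfer RNAs to the ribosome, was at 0.21 ± 0.08 (adjusted p = 0.0632). Gspt1, a release factor, changed by -0.38 ± 0.08 (adjusted p = 0.00354) and Eef1b2, an exchange factor, by 0.41 ± 0.11 (adjusted p = 0.0098). Eif5a changed by -0.30 ± 0.10 (adjusted p = 0.0339) and lost its call in 9 alternatives (adjusted p up to 0.0873). Of 10 mitochondrial translation factors 5 were lower and none (0) higher, with a median of -0.16. Gfm1, an elongation factor, changed by -0.73 ± 0.09 (adjusted p = 6.00e-05), Tufm by -0.45 ± 0.13 (adjusted p = 0.0131), Mrrf by -0.36 ± 0.11 (adjusted p = 0.0171) and Tsfm by -0.35 ± 0.11 (adjusted p = 0.0227). Tufm lost its call without fibrosis 4 and 5 (adjusted p = 0.0581), and Tsfm without control 1 or 2 (up to 0.0629).

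Of 22 tested genes of the amino acid response, 8 were lower and 1 higher, with a median of -0.03. Over all tested genes 17.2% were lower and 18.6% higher. Asns, which makes asparagine and is a well known ATF4 target, was at 32.4, 15.1, 28.2, 46.2 and 10.9 CPM in fibrosis, against 117, 103, 84.7, 91.6 and 112 CPM in control. Every fibrosis library lay below every control library, fibrosis 2 and 5 furthest, and the log2 change was -1.94 ± 0.33 (adjusted p = 0.000977). Atf4 itself was at 201, 183, 192, 214 and 197 CPM in fibrosis, against 233, 241, 228, 241 and 295 CPM in control, without overlap, a log2 change of -0.33 ± 0.09 (adjusted p = 0.0118). The serine synthesis gene Psat1 changed by -0.65 ± 0.08 (adjusted p = 0.000105), the mitochondrial carboxykinase gene Pck2 by -0.77 ± 0.13 (adjusted p = 0.000484) and the mitochondrial serine and glycine enzyme gene Shmt2 by -0.65 ± 0.12 (adjusted p = 0.000929).

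Other genes of this response did not move that way. Ddit4, an inhibitor of mTORC1, rose by 1.10 ± 0.24 (adjusted p = 0.00426). Its groups overlapped, with fibrosis 3 at 112 CPM inside the control range of 94.6 to 123 CPM. Trib3, an ATF4 target, was at 0.32 ± 0.24 (adjusted p = 0.311) and Ddit3 at -0.15 ± 0.14 (adjusted p = 0.433). Phgdh and Psph, which act before and after Psat1 in serine synthesis, were at 0.11 ± 0.10 (adjusted p = 0.396) and -0.02 ± 0.10 (adjusted p = 0.894). Eif2ak4, which encodes GCN2, was at 0.10 ± 0.11 (adjusted p = 0.485). Aldh1l2, Cth, Vldlr and Stc2 were too low to test.

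Amino acid transporters were lower in 6 of 12 tested genes and higher in none (0), with a median of -0.24, against 17.2% and 18.6% of all tested genes. Slc7a5, the light chain of the main importer of large neutral amino acids, was at 81.8, 62.0, 67.3, 50.4 and 41.0 CPM in fibrosis, against 149, 142, 122, 119.8 and 145 CPM in control. Its groups did not overlap, and it changed by -1.16 ± 0.16 (adjusted p = 0.00014), while its heavy chain Slc3a2 was at -0.16 ± 0.09 (adjusted p = 0.204). Slc43a1, another carrier of large neutral amino acids, was at 38.7, 25.8, 34.9, 37.0 and 15.6 CPM in fibrosis, against 105, 111, 98.2, 99.2 and 139 CPM in control, a log2 change of -1.86 ± 0.21 (adjusted p = 6.20e-05). Slc1a4, a carrier of small neutral amino acids, changed by -1.44 ± 0.19 (adjusted p = 0.000103) and Slc1a5, a glutamine carrier, by -0.42 ± 0.11 (adjusted p = 0.0121).

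**Figure D5:**
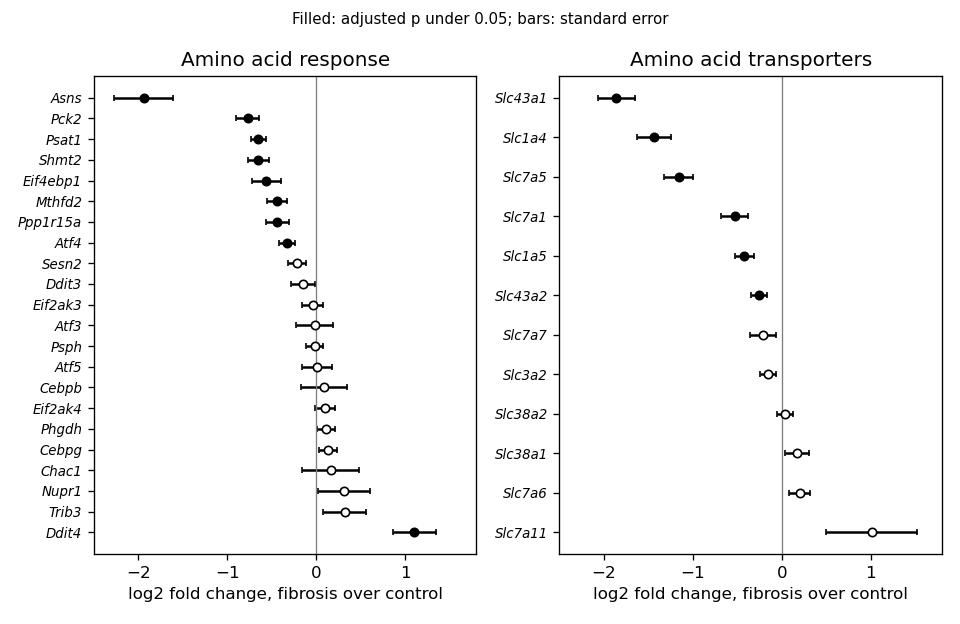
Log2 fold change, fibrosis over control, with standard error, of the tested genes of the amino acid response (22) and of amino acid transporters (12). Filled points passed the test; Asns and Slc43a1 had the lowest values, and Ddit4 was the 1 gene that passed on the right.

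On a list of Myc, its partners and growth genes that it is known to raise, 11 of 21 tested were lower and 1 was higher, with a median of -0.36. The shares over all tested genes were 17.2% lower and 18.6% higher. Odc1, of polyamine synthesis, changed by -0.97 ± 0.12 (adjusted p = 7.44e-05), and the nucleolar genes Nop56, Nolc1 and Rrs1 by -0.54 ± 0.08 (adjusted p = 0.000164), -0.73 ± 0.11 (adjusted p = 0.000311) and -0.57 ± 0.09 (adjusted p = 0.000419). Myc itself was at -0.19 ± 0.13 (adjusted p = 0.275) and passed without fibrosis 2 (adjusted p = 0.0399). The 20 cell cycle genes had a median of -1.23, with Mcm5, Ccnb2, Mcm7 and Mcm6 at -1.25 ± 0.12, -1.35 ± 0.13, -1.41 ± 0.14 and -1.22 ± 0.12. Of 13 erythroid markers 8 were lower too, but their sum in fibrosis 4, 7751 CPM, was above every control library. Of 11 tested genes induced by interferon-gamma, 4 were higher and 1 lower (median 0.39), among them Gbp3 at 0.80 ± 0.12 (adjusted p = 0.000282) and Psmb8 at 0.67 ± 0.10 (adjusted p = 0.000259), while Wars did not pass. Socs1 was the lower one, at -0.51 ± 0.16 (adjusted p = 0.0213), and lost its call without control 3 (adjusted p = 0.0515).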

How the data were processed

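RNA of splenic B cells was selected with poly-T beads and reverse transcribed with random hexamers, per the labels' protocols. The authors deposited a table of raw read counts by gene, and FPKM values, scaled by gene length and by library size. The build is GRCm38, also called mm10, per the submitters' processing notes. The aligner, the counting program and strand use: not given in the sources used here.

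Testing of the counts used edgeR 4.0.16 in R 4.3.3 (filterByExpr, TMM, robust quasi-likelihood fit, no covariate) on all 10 libraries, with Benjamini-Hochberg adjustment over 14283 genes, and genes with an adjusted p below 0.05 were called. The genes tested held 99.85% of the counts, and 20984 of 54532 genes had no count. Replicates correlated at 0.965 to 0.986 in fibrosis and at 0.987 to 0.992 in control (Pearson's r over genes, on log2 CPM; genes are not independent replicates), and no libraries agreed within sampling noise (chi-square per degree of freedom of at least 5.81). Standard errors are the log2 change divided by the square root of F. Partner ratios used log2 of counts plus 0.5 and exact permutation over 252 assignments (scipy 1.17.1). The code was tested on simulated data. Promoters came from RefSeq (GRCm38.p6).

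Alternatives were other scalings, filters, DESeq2 1.42.0, limma 3.58.1 (voom, and log2 of FPKM plus 1 or 0.1), stricter thresholds, a replicate block and libraries left out. The synthetase genes and the other lists were chosen with earlier results of these data known. Every synthetase gene is named; of other lists, up to 4 genes with the smallest p, the scaffold genes, Atf4, Ddit3, Trib3, Asns and Myc. Some genes that this rule takes are not reported here. Others named (Ddit4, Phgdh, Psph, Eif2ak4, Slc3a2, Maf1, mt-Rnr1, mt-Rnr2 and Gm23935, and genes too low to test) were chosen after their values were seen.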

Additional observations from a re-analysis of the deposited data

Results flagged for a closer look

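In 72 tests, 1 for each synthetase gene in each group, a single library stood apart from the other 4 of its group in 4 cases by Dixon's criterion (a gap of more than 0.71 of the range), where chance flags about 1 in 20 groups. All 4 were fibrosis libraries. Cars was at 26.1 CPM in fibrosis 5, against 34.9 to 38.0 CPM in the other fibrosis libraries. Nars2 was at 10.6 CPM in fibrosis 4, against 7.70 to 8.43 CPM in the others. Sars2 was at 27.5 CPM in fibrosis 1, against 21.5 to 22.7 CPM in the others, and Yars2 was at 24.5 CPM in fibrosis 4, against 20.0 to 21.0 CPM in the others. Cars was thus lower there than in the rest of its group, and Nars2, Sars2 and Yars2 were nearer to control.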

How the results depend on the processing

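Under 22 alternatives, 33 to 36 of the 36 synthetase genes kept their direction, and 18 to 20 of the 20 calls were kept under every scaling, filter, tool and set of libraries tried; at an adjusted p under 0.01, 16 were kept. At that threshold 1547 genes were higher and 5 mitochondrial synthetase genes were lower. With at least 1.5-fold, 1403 genes were higher and 1381 lower, 6 cytosolic synthetase genes were lower and 0 mitochondrial ones. A stricter limit can only keep or lower such counts. Leaving out each library in turn gave 2052 to 2914 genes higher and 2083 to 2582 lower, 10 to 11 cytosolic and 7 to 9 mitochondrial synthetase genes lower, 0 and 1 higher, and 7 to 10 partner ratios lower and 2 to 3 higher. Without fibrosis 4 and 5, 6 partner ratios were lower and 2 higher. Same-numbered libraries correlated in their deviations from the group means at 0.109, -0.127, 0.419, 0.254 and -0.248 for numbers 1 to 5. Fibrosis 1, 3 and 4 correlated best with the control library of their own number (0.104, 0.208 and 0.0948 at most with another) and fibrosis 2 and 5 did not, so the hint is mixed, and as the labels tie the numbers to nothing shared they were not taken as pairs. The replicate block changed no synthetase call in edgeR (2677 genes higher and 2534 lower over all). For the partner ratios the block left 0 lower and 0 higher, since 32 sign flips cannot give a p under 0.0625. At this depth, with 5 libraries a group, standard errors of the synthetase genes were 0.07 to 0.35 on the log2 scale.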
